A study of Mus musculus with 2 samples.

Results

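Paired EWS-FLI1 peaks are the called regions that lie close to another called region although their surroundings hold few. They were taken from a peak list on build mm9 of the mouse genome, from chromosomes 1 to 19 and X. A peak was kept when another peak centre lay within 10 kb on the same chromosome and when its 1 Mb bin held fewer than 5 peaks. This gave 194 peaks, out of 2457 on these chromosomes (7.9%) and 2563 in the whole list. They formed 94 groups: 88 pairs, with 176 peaks, and 6 groups of 3, with 18 peaks. The members were chosen by peak positions alone, so their closeness and number are descriptions and not findings.

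The list comes from chromatin immunoprecipitation with sequencing (ChIP-seq) in SCOS#2, a mouse osteosarcoma cell line in which the fusion EWS-FLI1 is induced by doxycycline. The cells had 2 µg/ml doxycycline for 72 h, and chromatin was precipitated through an HA tag. The other library of the series, input DNA, came from cells of the same line under the same treatment. Each kind has 1 library, both are induced, and the line is a single tumour-derived line, so no value below has a replicate error, none compares induced with uninduced cells, and no test was made.

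EWS-FLI1 joins the N-terminal part of the RNA-binding protein EWS, which acts as an activation domain, to the DNA-binding ETS domain of FLI1. ETS proteins bind a short core of the letters GGAA. In human Ewing sarcoma cells the fusion is known for binding tandem repeats of this core as well as single ETS sites, and several proteins can sit side by side on 1 repeat. An enhancer or promoter may also hold separate sites some distance apart, which a peak caller then lists as separate peaks. No sequence under the peaks was read here, since a genome of build mm9 was not used, and for the same reason no gene is named at any position.

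Each peak carries the score of the authors' peak caller, given without a stated scale. The lowest in the list was 30.01. The scores could be read as -10 times the log10 of a Poisson probability for a whole number of reads, a reading found from the values after they were seen. On it, a score of 30 is a p of 0.001 for 1 region, and 1867 peaks had a score that a whole number of reads would give (a whole-read step). For those a count of implied reads can be given. Background on this reading was 1 read per 276.4 bp of peak width. The list holds no read totals, so the depth is unknown.

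The group on chromosome 19 at 37 Mb was singled out in advance, with earlier results of these data known. Its high scores are therefore a description and not a finding. The group stood apart from every other group in score. It held 3 peaks within 7767 bp and was alone in its megabase. The peaks nearest to it lay 810660.5 bp before and 1859429 bp after it, centre to centre. From left to right its scores fell from 230.72 through 161.86 to 54.38. The first and strongest peak, at chr19:37025452-37026003, was 552 bp wide and held 29 implied reads over 2.00 expected (14.5-fold). It had the highest score of the whole list. After a gap of 4533 bp came the peak at chr19:37030537-37031383, 847 bp wide, with 27 implied reads over 3.06 expected (8.81-fold), which ranked 3 in the list. After a further 1426 bp came the weakest, at chr19:37032810-37033218. It was 409 bp wide and held 10 implied reads over 1.48 expected (6.76-fold), and its rank was 126. These were the 3 highest folds over background of all paired peaks with an implied count. The next, 5.50-fold, belonged to the narrowest paired peak, at chr14:106350784-106351078, with 7 implied reads in 295 bp and a score of 34.47.

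No paired peak elsewhere came near the scores of the first and second peak of this group. The highest score of any other paired peak was 69.19, so the strongest chromosome 19 peak scored 3.33 times as high. The chromosome 19 group was also the one group, of 94, in which every peak reached a score of 50. The other groups of 3 mostly held peaks with scores in the thirties and low forties. On chromosome 9, the group at chr9:109263716-109268510 combined scores of 33.14 and 33.01 with 63.88 in its right-hand peak. That peak was 1663 bp wide with 22 implied reads, but its fold over background, 3.66, was no higher than the 3.71 of its neighbour, 190 bp away. On chromosome 14, at chr14:100781318-100788116, the scores were 37.38, 35.67 and 46.15, with gaps of 1061 and 3140 bp. The most compact group lay on chromosome 4, at chr4:99399660-99403535, where peaks scoring 35.63, 39.0 and 38.5 were separated by 977 and 98 bp.

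Chromosome 7 held the remaining groups of 3. At chr7:15827634-15838669 the peaks scored 30.89, 33.99 and 37.31 and lay 4638 and 3818 bp apart, the widest spread of the 6 groups (span 11036 bp). Their implied reads were 9, 11 and 13 in widths of 658, 861 and 1061 bp, so reads rose with width while the fold over background stayed between 3.39 and 3.78. At chr7:100560883-100565714 the scores were 30.21, 41.97 and 42.47. All 3 of these peaks were close to 950 bp wide (939 to 959 bp), with 11, 13 and 13 implied reads. A difference of 2 reads thus separated a score at the edge of the list from one above 40.

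**Figure D1:**
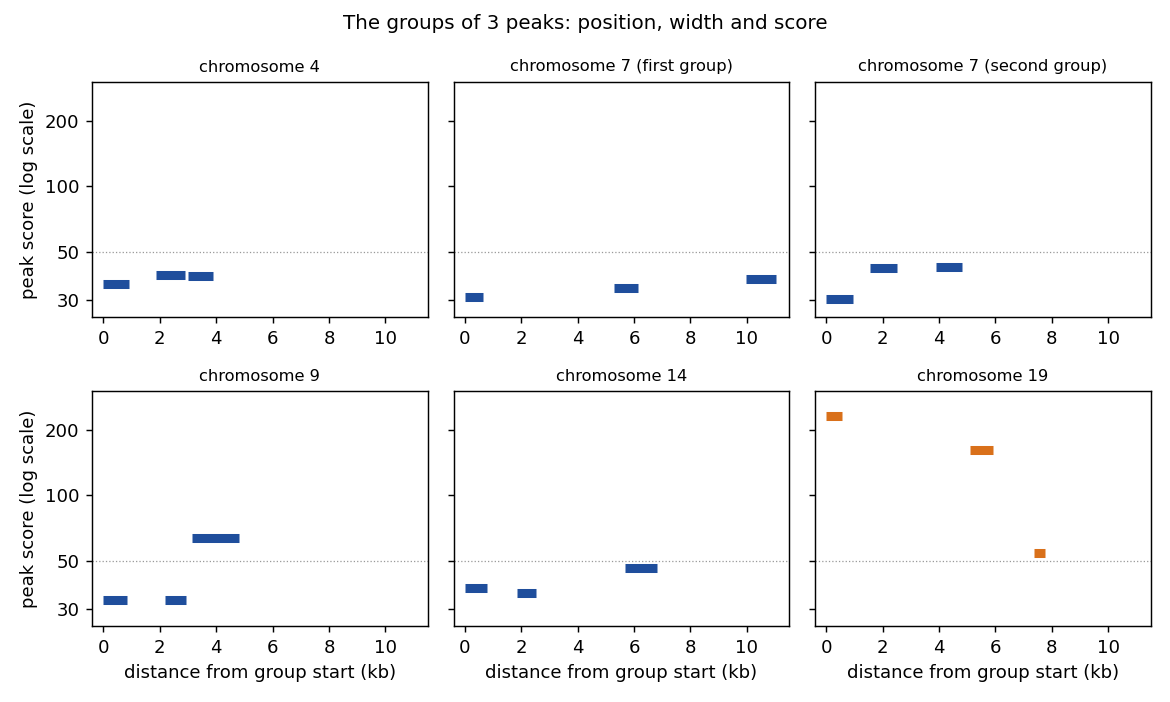
Each panel shows 1 group of 3 peaks, with distance from the start of the group (kb) on the horizontal axis and the peak score (log scale) on the vertical axis; each bar spans the width of a peak and the dotted line marks a score of 50. The chromosome 19 peaks (orange) score 230.72, 161.86 and 54.38, while in the other panels a single peak, on chromosome 9, lies above the line.

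In the 88 pairs, typical gaps were short compared with the 10 kb allowed. The gap between edges had a median of 1446.5 bp (quartiles 605.8 and 3114.5 bp, range 31 to 9112 bp). Gaps under 1 kb were found in 33 pairs (37.5%), gaps of 1 to 4 kb in 36 and longer ones in 19. In 27 pairs (30.7%) the gap was shorter than the narrower of the peaks beside it. From first start to last end a pair spanned a median of 3235 bp (quartiles 2416.5 and 4657.2 bp). In the groups of 3 the 12 gaps had a median of 1366.5 bp (range 98 to 4638 bp).

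In the 3 pairs with the smallest gaps no score reached 40, which 24.5% of all peaks on these chromosomes did. So few pairs cannot tie this to the gap. At 31 bp apart, the peaks at chr13:93882017-93882588 and chr13:93882620-93883173 scored 35.17 and 36.17, each with 9 implied reads. At 51 bp, those at chr2:65614904-65615435 and chr2:65615487-65616291 scored 37.45 and 30.52, with 9 and 10 implied reads; the lower score belonged to the peak with more reads, which was the wider one (805 against 532 bp). At 73 bp, those at chrX:108145212-108145941 and chrX:108146015-108147009 scored 33.73 and 34.31.

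The same held for the 3 pairs with the largest gaps. On chromosome 4, peaks at chr4:88430798-88431358 and chr4:88440471-88441139 scored 36.78 and 30.39 across 9112 bp. On chromosome 8, peaks at chr8:102243872-102244579 and chr8:102252706-102253090 scored 34.75 and 32.19 across 8126 bp. On chromosome 13, peaks at chr13:61076508-61077021 and chr13:61085021-61085639 scored 38.55 and 32.74 across 7999 bp.

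The limit of 10 kb fell where few pairs lay. Just inside it were centre distances of 9727, 8781.5 and 8672.5 bp. The pair at 8781.5 bp, at chr12:42961434-42962687 and chr12:42970526-42971158, scored 30.62 and 32.06, and the other pairs are the chromosome 4 and chromosome 8 pairs above. Just outside it, neighbours lay 10137.5 bp apart on chromosome X (scores 50.94 and 33.01), 11069 bp apart on chromosome 16 (38.63 and 48.69) and 11585 bp apart on chromosome 5 (32.61 and 32.42). At the limit on bin counts, bins of 4 peaks held 56 close peaks of 176, and bins of 5 peaks, which were left out, held 21 of 75.

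Most pairs joined a peak near the lowest score of the list with one somewhat above it. The stronger peak had a median score of 38.5 (quartiles 34.7 and 45.4, range 30.6 to 69.19) and the weaker a median of 32.15 (quartiles 30.9 and 34.6, range 30.01 to 43.86). Stronger and weaker were named by score, so the difference between them, a median of 5.445 (quartiles 1.48 and 12.4), is above 0 by construction. The weaker peak scored under 35 in 67 pairs (76.1%) and under 31 in 23. Of all peaks on these chromosomes, 52.3% scored under 35 and 12.7% under 31. In the 98 neighbours with centres 10 to 50 kb apart, the weaker scored under 35 in 69 (70.4%) and under 31 in 14. Low weaker scores thus follow in part from the list and from the naming, and a difference from distant neighbours was not tested. Of the 88 pairs within 10 kb, both peaks reached 40 in 3 pairs, the stronger alone did in 36, and neither did in 49. The stronger peak reached 50 in 17 pairs (19.3%), and the weaker in 0 of 88. Among the 98 more distant neighbours the stronger reached 50 in 20 (20.4%) and the weaker in 0.

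Among the 53 pairs in which both peaks had an implied count, the stronger peak held from 7 to 21 reads, with a median of 11 and quartiles of 9 and 14. The weaker held from 7 to 14, with a median of 10 and quartiles of 9 and 11. The stronger peak held more reads in 32 pairs, the same number in 11 and fewer in 10. Implied reads were computed from score and width, so a lead of the stronger peak follows in part from its naming. The counts differed by at most 3 reads in 36 pairs. With 1 library the order of the peaks within a pair has no replicate check.

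The 10 pairs with the highest stronger score were picked by that score. Large differences between partners follow in part from this choice, since most peaks of the list score low. On chromosome 5, a peak scoring 69.19 (chr5:18487618-18489033, 21 implied reads in 1416 bp) lay 6870 bp from one scoring 31.51 (chr5:18479967-18480747, 10 reads in 781 bp). This was the largest difference of any pair, 37.68. On chromosome 1, scores of 62.64 (chr1:105819144-105820431) and 30.17 (chr1:105821640-105822313) stood 1208 bp apart. On chromosome 6, 58.48 (chr6:45732097-45733097) and 30.77 (chr6:45726801-45727599) stood 4497 bp apart. On chromosome 17, 56.23 (chr17:47219941-47221512) and 30.13 (chr17:47218005-47218819) stood 1121 bp apart, with 20 and 10 implied reads. In each of these pairs the weaker peak was within 2 score units of the lowest in the list.

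Another set of these 10 pairs had weaker peaks that scored between 33.69 and 36.62. A chromosome 18 pair scored 55.97 (chr18:53182490-53183795) and 36.32 (chr18:53188640-53189074) across 4844 bp. A second pair on chromosome 6 scored 55.07 (chr6:121600877-121602070) and 36.62 (chr6:121602754-121603690) across 683 bp. A chromosome 11 pair scored 33.69 (chr11:54198376-54199036) and 52.85 (chr11:54199816-54200676) across 779 bp.

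Among the 88 pairs, the 5 highest weaker scores, 39.38 to 43.86, were all found across gaps of 215 to 655 bp. In the groups of 3, neighbours that both reached 40 lay further apart: 4533 and 1426 bp on chromosome 19 and 1388 bp on chromosome 7. On chromosome X, peaks at chrX:65431234-65432436 and chrX:65432683-65433724 scored 60.88 and 43.86 across 246 bp, with 18 and 14 implied reads in 1203 and 1042 bp. On chromosome 7, peaks at chr7:83978573-83979834 and chr7:83980050-83981275 scored 52.86 and 42.57 across 215 bp, and neither score lay on a whole-read step. On chromosome 4, peaks at chr4:22780257-22781218 and chr4:22781441-22781928 scored 41.43 and 40.22 across 222 bp. These are the 3 pairs in which both peaks reached 40.

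Next came a chromosome 1 pair at chr1:125756042-125757037 and chr1:125757341-125758545, which scored 39.96 and 54.55 across 303 bp. A chromosome 11 pair at chr11:10780450-10781339 and chr11:10781995-10783145 scored 51.26 and 39.38 across 655 bp, and both of its peaks held 14 implied reads. The widths of that pair were 890 and 1151 bp, so the same count gave the lower score to the wider peak.

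Over all pairs the link of gap and score was weak. Pairs with gaps under 1 kb had a median stronger score of 39.7 and a median weaker score of 33.7 (n = 33). The values were 38.1 and 31.5 at 1 to 4 kb (n = 36) and 37.8 and 32.0 at 4 kb or more (n = 19). The stronger peak reached 50 in 9, 5 and 3 pairs of these classes. Across the 88 pairs, which share 1 library, Spearman's rho of gap with the weaker score was -0.23 and with the stronger score -0.083; both are given as descriptions.

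**Figure D2:**
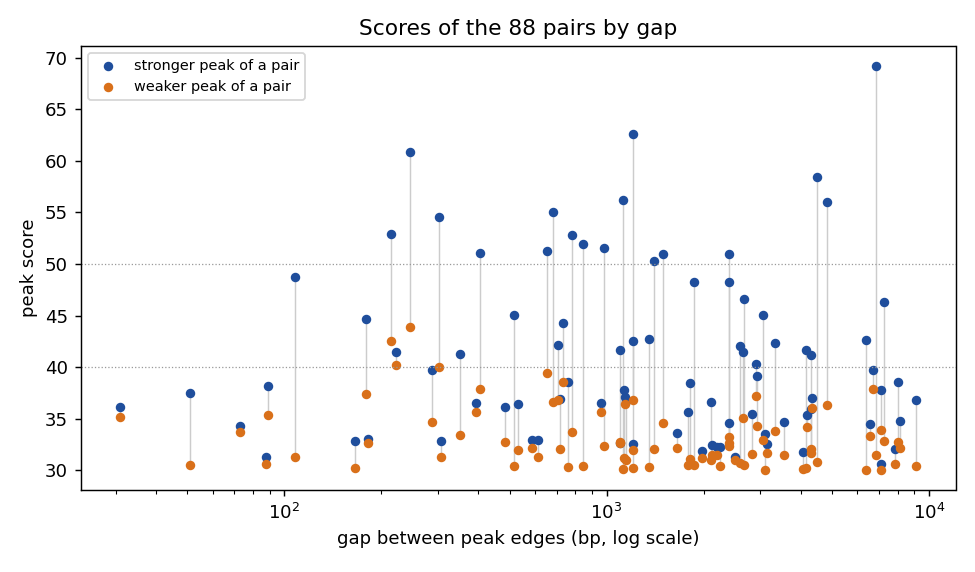
For each of the 88 pairs the gap between peak edges (bp, log scale) is on the horizontal axis and the scores of its stronger (blue) and weaker (orange) peak, joined by a line, on the vertical axis; dotted lines mark scores of 40 and 50. Weaker peaks stay below 44 throughout, and the 3 pairs with both peaks above 40 have gaps of 215 to 246 bp.

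Between the left and the right peak of the 88 pairs, Spearman's rho was -0.14 and Pearson's r of the log10 scores -0.14. The sign differed by gap: rho was 0.14 under 1 kb (n = 33), -0.35 at 1 to 4 kb (n = 36) and -0.28 at 4 kb or more (n = 19). Merging takes out pairs with gaps under 500 bp, which belong to the class with the positive rho. With peaks under 500 bp apart merged first, 72 pairs were left, and rho was -0.31 and r -0.30. For comparison, 98 neighbouring peaks with centres 10 to 50 kb apart in the same kind of bin had a rho of 0.21 and an r of 0.16. All of these points come from 1 library and 1 background, and weak correlations of this size are given as descriptions only. The more distant neighbours had a median stronger score of 40.7 and a median weaker score of 33.4, both above the medians of the pairs within 10 kb; the difference was not tested. Both peaks reached 40 in 10 of the 98 distant neighbours (10.2%) and in 3 of the 88 pairs (3.41%). With the 12 steps between neighbours in groups of 3, of which 3 had both peaks at 40, the count was 6 of 100 (6%). Of the distant neighbours, 12 included a paired peak and 6 shared a peak with another. Widths of left and right peaks had a rho of 0.20 in the pairs and 0.091 in the distant neighbours.

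No side was favoured by more than a few pairs: the stronger peak was the left one in 42 pairs and the right one in 46. The stronger peak was the wider one in 47 of 88 pairs (53.4%), and its median width was 811.5 bp against 728 bp for the weaker. By gap, this share was 60.6% under 1 kb, 41.7% at 1 to 4 kb and 63.2% at 4 kb or more. Among the 98 distant neighbours the stronger was wider in 60 (61.2%), with median widths of 793.5 and 668 bp. In 14 pairs the scores differed by less than 1 and in 5 by more than 20.

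**Figure D3:**
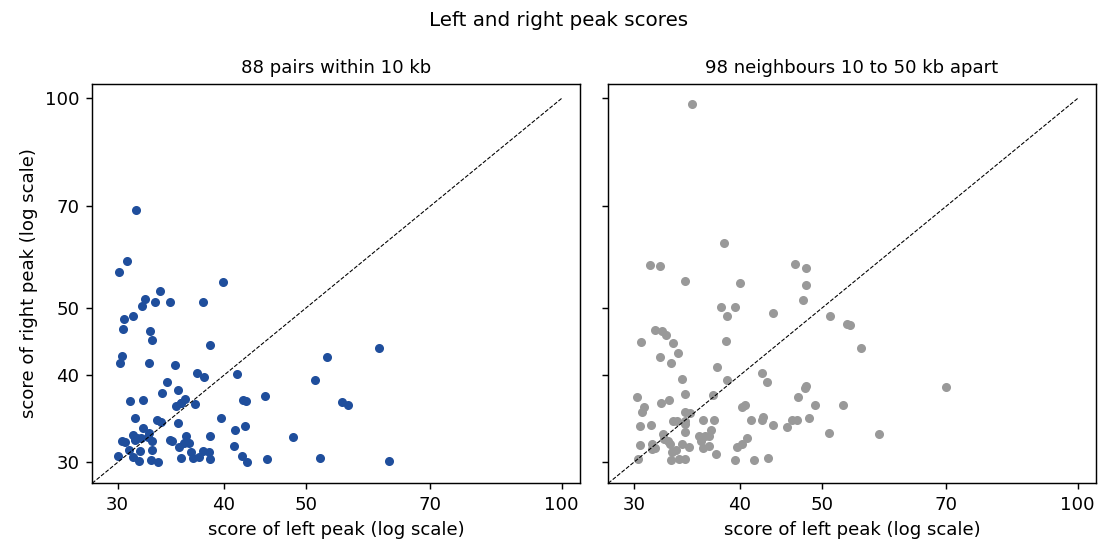
Each point is a pair of neighbouring peaks, with the score of the left peak on the horizontal and of the right peak on the vertical axis (both log scales); the dashed line marks equal scores. Of the 88 pairs within 10 kb (blue), 3 have both scores above 40, against 10 of the 98 neighbours 10 to 50 kb apart (grey).

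The median score of paired peaks was 35.1 (quartiles 32.1 and 40.2), against 34.5 (32.1 and 39.4) in the 2026 single peaks of bins with fewer than 5 peaks. A score of 50 was reached by 21 of 194 paired peaks (10.8%, 95% Wilson interval 7.19 to 15.98%), beside 7.86% of all 2457 peaks on these chromosomes. A score of 40 was reached by 49 (25.3%, 19.7 to 31.8%), beside 24.5% of all peaks. Among single peaks the shares were 7.16% and 23.0%. The shares over all peaks lie within the intervals of the paired peaks, and that of single peaks at a score of 50 lies just below. The intervals cover counting error only and are too narrow for peaks that come in groups. Of the 21 peaks, 3 were those of the chromosome 19 group.

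Paired peaks were wider in the median than single peaks, a difference that was not tested. They measured 787.5 bp in the median, with quartiles of 641.2 and 953.8 bp, against 698.5 bp (578 and 885 bp) in single peaks and 802 bp (618 and 1232 bp) in the 237 peaks of bins with 5 or more. Paired and single peaks differed at the narrow end. Under 500 bp wide were 14 paired peaks (7.22%, 4.35 to 11.7%), beside 14.5% of all peaks and 15.8% (14.3 to 17.5%) of single ones. Bins of 5 or more also held few such peaks, 9.28% (6.21 to 13.65%), and among their 90 close peaks the share was 4.44%. At 1000 bp or wider were 40 (20.6%, 15.5 to 26.9%), beside 17.5% of all peaks; in crowded bins this share was 35.02% (29.2 to 41.3%). The limit of 500 bp was chosen after the widths had been seen. The widest paired peak, at chr13:90185433-90187404, measured 1972 bp and scored 44.24, and its partner at chr13:90183668-90184697 scored 38.55 across 735 bp. All paired peaks together covered 159.5 kb.

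**Figure D4:**
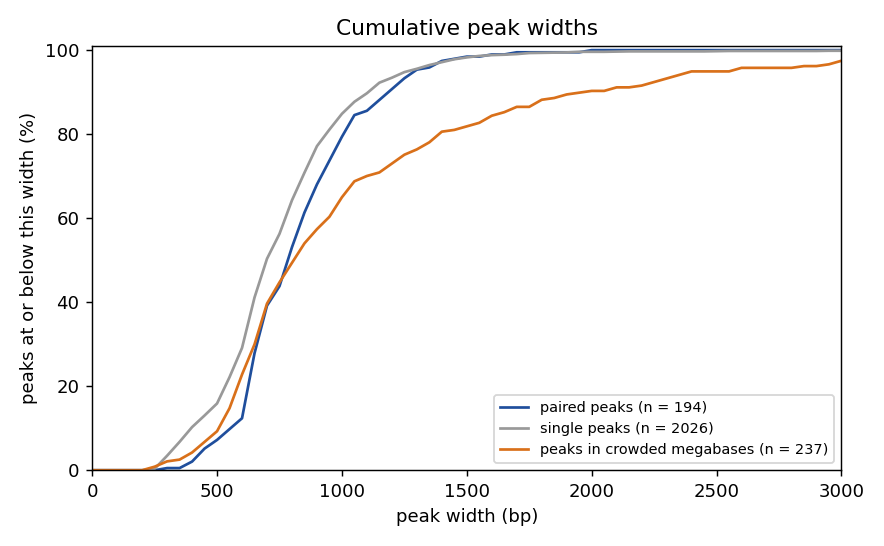
The share of peaks (%) at or below a given width (bp) is drawn for paired peaks (blue), single peaks (grey) and peaks of bins with 5 or more (orange). The blue curve starts to the right of the grey one, with 7.22% against 15.8% of peaks under 500 bp, and both reach their plateau well before the orange curve.

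Paired peaks followed the common background about as often as single ones. Scores on whole-read steps, which assume 1 background for the whole genome, were found in 152 of 194 paired peaks (78.4%, 72.0 to 83.6%), beside 73.3% of all peaks and 76.3% (74.4 to 78.1%) of single ones. In bins of 5 or more peaks this share was 43.5% (37.3 to 49.8%). Implied counts of paired peaks ran from 7 to 29 reads, with quartiles of 9 and 13. The medians were 10 reads and 3.85-fold over background, against 10 reads and 3.99-fold in single peaks. A narrow peak needs a higher fold for the same score: the 295 bp peak had 5.50-fold at a score of 34.47. Single peaks were narrower in the median, so these folds are not compared at like width. In the stronger peaks of pairs the median was 4.03-fold and in the weaker ones 3.74-fold. Folds were computed from score and width, so this order follows in part from naming the peaks by score.

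Groups were found on all 20 chromosomes, with 2 to 9 groups each. Chromosome 7 held the most, 7 pairs and 2 groups of 3, and 20 of its 116 peaks were paired (17.2%). On the other chromosomes the share of paired peaks ran from 4.35% on chromosome 12 to 12.5% on chromosome 19, where it rests on 5 of 40 peaks. Chromosome X held 8 pairs (16 of 156 peaks), with a median gap of 552 bp. Over these chromosomes together 7.9% of peaks were paired, and the median chromosome had 7.99%. With bins of any count included, 11.6% of peaks had a neighbour within 10 kb, a share not comparable with those above. In 34 groups the bin held 2 peaks, in 34 it held 3 and in 26 it held 4. Beyond its own members, the nearest peak to a group lay a median of 315054.2 bp away (quartiles 108216.8 and 664465.8 bp), and it was under 50 kb away for 12 groups. The number of peaks allowed per bin limits these distances in part.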

How the data were processed

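The values are the peak list of 1 ChIP library. The submitters' processing notes name cutadapt, Bowtie2 2.2.0 and the build mm9; MACS is named by the deposited peak names. The score per peak was deposited by the authors. The caller's version, threshold and duplicate handling, which set which weak peaks appear and whether close regions are split, were not stated in the sources at hand.

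Starts were converted to 1-based coordinates. Neighbours with centres at most 10 kb apart were chained, and gaps run from edge to edge. Implied reads came from starting counts of 3 to 15 for the commonest score (34.47, 98 peaks); a count of 7 put 72.8% of peaks within 0.02 of a step, any other count at most 5.31%. Below a width of 352 bp the background was held constant. Shares carry 95% Wilson intervals.

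Named are the chromosome 19 group, all groups of 3, the 10 highest stronger and 5 highest weaker scores, the 3 smallest and largest gaps, the widest peak, and 3 neighbours on each side of the distance limit. The members and classes were chosen with earlier results of these data known. Alternatives were other distances, bin limits and borders, score limits, autosomes, and merging. Grouping and steps were tested on data simulated under the same Poisson reading, which cannot show that the deposited scores are read counts. Motifs were not analysed here. Python 3.11.15, pandas 2.3.3 and scipy 1.17.1 were used.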

Additional observations from a re-analysis of the deposited data

How the results depend on the processing

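Scores above the list median left 72 paired peaks in 34 groups, with a median gap of 1101.5 bp, a median width of 954 bp and pair medians of 42.3 (stronger) and 37.02 (weaker). Of these peaks 20.8% reached a score of 50, 45.8% a score of 40 and 41.7% a width of 1000 bp, and the correlations of left and right scores turned to 0.0768 (Spearman) and 0.0438 (Pearson). A score of at least 50 left 3 peaks in 1 group, the chromosome 19 group (median gap 2979.5 bp, median width 552 bp, 100% at a score of 50, 100% at 40 and 0% at 1000 bp), with no pairs to summarise. Merging peaks under 500 bp apart raised the median gap to 2224 bp by construction, from 1394 bp over all groups, and moved Spearman's rho from -0.14 to -0.31 and Pearson's r to -0.30, within the 95% intervals of the unmerged pairs (-0.34 to 0.070 and -0.34 to 0.071). With bins of up to 9 peaks, 27.6% were 1000 bp or wider. A distance of 5 kb turned Pearson's r to 0.12, and to -0.092 without the chromosome 19 pair. The other values under these and the remaining alternatives stayed within the 95% intervals of the reported values or, for counts, by less than 1.5 times: 138 to 250 peaks in 68 to 119 groups. Leaving out the chromosome 19 group was an alternative chosen after seeing the data. That group is no pair, so the pair medians and correlations could not change. Dropping its 3 peaks moved no other median or share out of its interval. No paired analysis was possible because only the ChIP library has values. With 1 library and about 10 implied reads per peak, the list does not show how repeatable these pairs are.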
